A study of Mus musculus with 4 samples.

Results

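Sub1 CUT&Tag peaks were examined around 8 genes that encode myeloid transcription factors: Cebpa, Cebpb, Cebpd, Cebpe, Spi1, Gfi1, Irf8 and Klf4. They were chosen by name from 21887 protein-coding genes, and a peak belonged to a gene when it overlapped the gene body extended by 50 kb to either side. Such windows held 85 of 41097 peaks in LSC 1, 77 of 34185 in LSC 2, 201 of 115881 in HSC 1 and 264 of 235680 in HSC 2. Peaks within 1 kb of the gene body are called gene peaks here, and all others in a window distal peaks.

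CUT&Tag uses an antibody to direct a transposase to the chromatin near a protein, and Sub1, also known as PC4, is a DNA-binding cofactor of RNA polymerase II transcription. The leukemia stem cells (LSCs) were bone marrow cells with c-Kit, CD34 and CD16/32 and without Sca-1 or lineage markers, sorted from Nup214fl/+ mice with disease driven by MLL-AF9, a fusion oncoprotein of acute myeloid leukemia. The hematopoietic stem cells (HSCs) were CD48-negative, CD150-positive LSK cells (lineage-negative, Sca-1-positive, c-Kit-positive) of Nup214fl/+ mice. All mice thus carried 1 floxed allele of the nuclear pore gene Nup214. No Cre is named, ages are not given, and the labels do not say how MLL-AF9 was introduced. Each group had 2 libraries, which the labels do not assign to separate mice, so every p-value measures the spread between libraries alone. With 2 libraries against 2, the two-sided exact permutation test cannot give a p below 0.33.

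Myeloid fate is set by a small circuit of DNA-binding factors. C/EBP proteins are basic leucine zipper factors and PU.1, the product of Spi1, is an ETS factor. Together they open enhancers of myeloid genes, while Gfi1, Irf8 and Klf4 bias progenitors towards granulocytes, or towards monocytes and dendritic cells. Several of these genes are controlled from enhancers far away on the chromosome, and in mice Cebpa is needed for MLL-fusion leukemia to arise.

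Depth differed between the lists. The background implied by the deposited folds was 4.54 and 4.5 reads per position in LSC 1 and LSC 2, against 3.07 and 7.47 in HSC 1 and HSC 2. The median peak was 591 and 841 bp long in the LSC libraries, against 372 and 462 bp in the HSC libraries. Because list lengths differ by so much, the main counts are also given for lists of equal size, cut at the 34185 peaks with the highest -log10 p. Folds are the authors' values and describe peaks within 1 list only. Of the 7 sorting marker genes, Ly6a (Sca-1) and Slamf1 (CD150) had gene peaks in both HSC lists and in neither LSC list as deposited. With lists of equal size, Ly6a was HSC-only, Cd34 was LSC-only and Slamf1 had no gene peak. Among all genes, 7.71% were HSC-only as deposited. In lists of equal size 2.59% were LSC-only and 0.489% HSC-only. All 8 markers of neutrophils and monocytes had gene peaks in all 4 lists, while markers of erythroid, B and T cells had them for 4 and 2 of 7 genes in the LSC lists and for 4 and 5 in the HSC lists as deposited. The counts were 2 and 2 in the LSC lists of equal size, and 2 and 4 in the HSC lists. For comparison, 61.8% and 57.3% of all genes had a gene peak in the deposited LSC lists, against 68.9% and 82.4% in the HSC lists. In lists of equal size the shares were 59.9% and 57.3% for LSCs, against 53.5% and 55.9% for HSCs. A peak is not expression, so the marker counts do not measure the purity of a sort.

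All 8 genes carried a gene peak in all 4 libraries, both in the deposited lists and in lists of equal size. Of all protein-coding genes, 55.4% did so in the deposited lists and 49.3% in lists of equal size. Per library, gene peaks were found at 61.8% and 57.3% of all genes in the deposited LSC lists, against 68.9% and 82.4% in the HSC lists. Cut to equal size, the lists had them at 59.9% and 57.3% of genes for LSCs, against 53.5% and 55.9% for HSCs. No member had its gene peak in 1 cell type alone. Of all genes, 0.0959% had one in both LSC lists and neither HSC list and 7.71% the reverse as deposited, and 2.59% and 0.489% in lists of equal size. The libraries differed at the members in how strong these peaks were and in what lay around them. The map of the 8 windows shows gene peaks as the strongest and longest elements in most windows, with shorter distal peaks at places that vary between libraries.

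**Figure D1:**
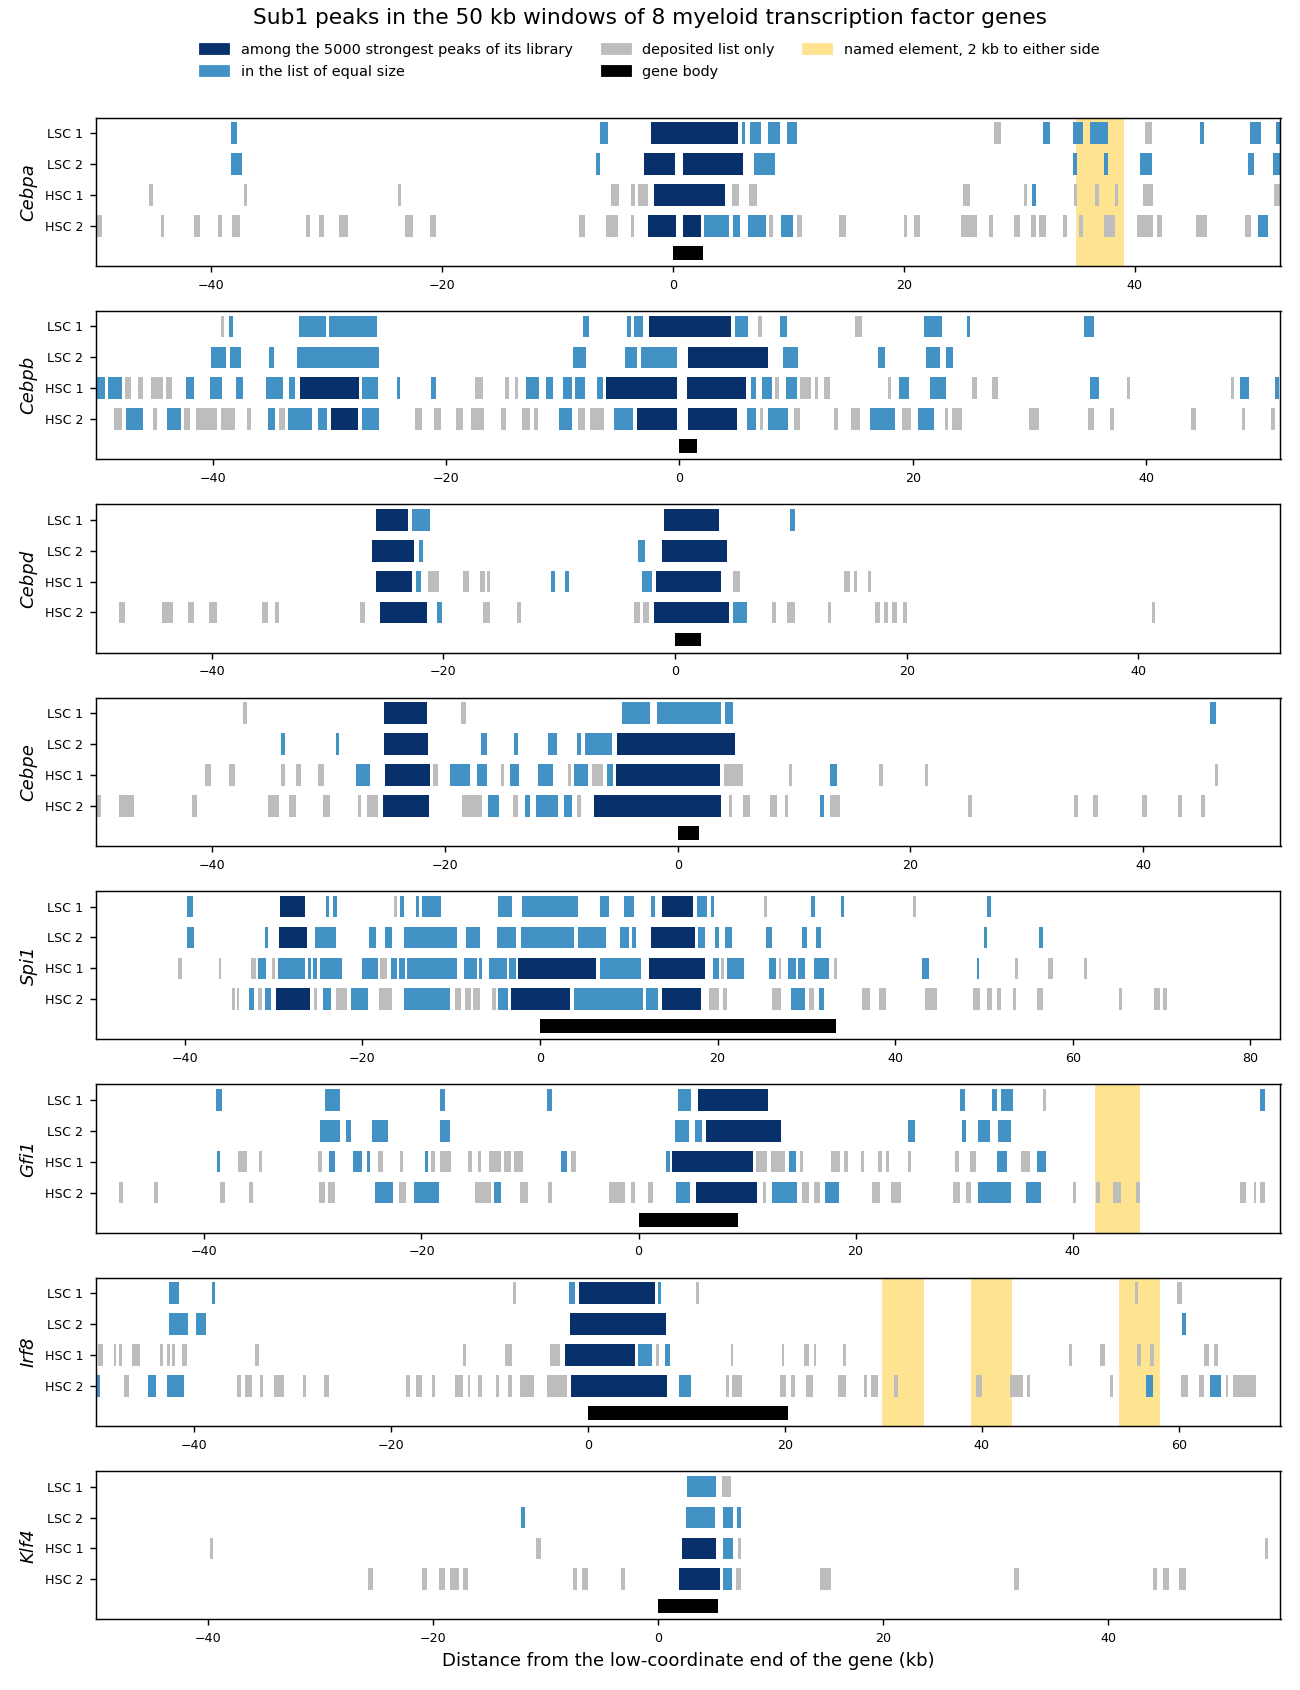
Sub1 peaks in the 50 kb windows of the 8 genes, 1 row per library, with LSC rows above HSC rows. The horizontal axis is the distance in kb from the low-coordinate end of each gene, colours give the place of a peak in its list, and yellow bands mark the named elements of Cebpa, Gfi1 and Irf8. Each gene body is met by a peak in all 4 rows, and the deposited HSC lists add many weak distal peaks.

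Within each library, all peaks were ranked by -log10 p, with rank 1 the strongest. The strongest gene peaks of the 8 genes had median ranks of 1957 and 1894 in the LSC libraries, against 1273 and 949 in the HSC libraries. Genes with a gene peak had median ranks of 5513 and 5110 in the LSC lists of equal size, against 4936 and 5324 in the HSC lists. The median of the 8 thus lay above that of all genes in each library, and lower in the order in the LSC lists (1926 ± 44.5) than in the HSC lists (1111 ± 229; mean ± SD, n = 2 each, exact permutation p = 0.33). Klf4 was an exception in both LSC libraries, where it ranked below the median of all genes. Among the 5000 strongest peaks were 6 and 7 of the 8 in LSC 1 and LSC 2, where 27.5% and 28.2% of all genes lay, and all 8 in HSC 1 and HSC 2, where 26.8% and 26.6% lay. Among the 1000 strongest were 3 of the 8 in each LSC library, where 6.19% and 6.67% of all genes lay, and 4 in each HSC library, where 6.35% and 6.26% lay.

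**Figure D2:**
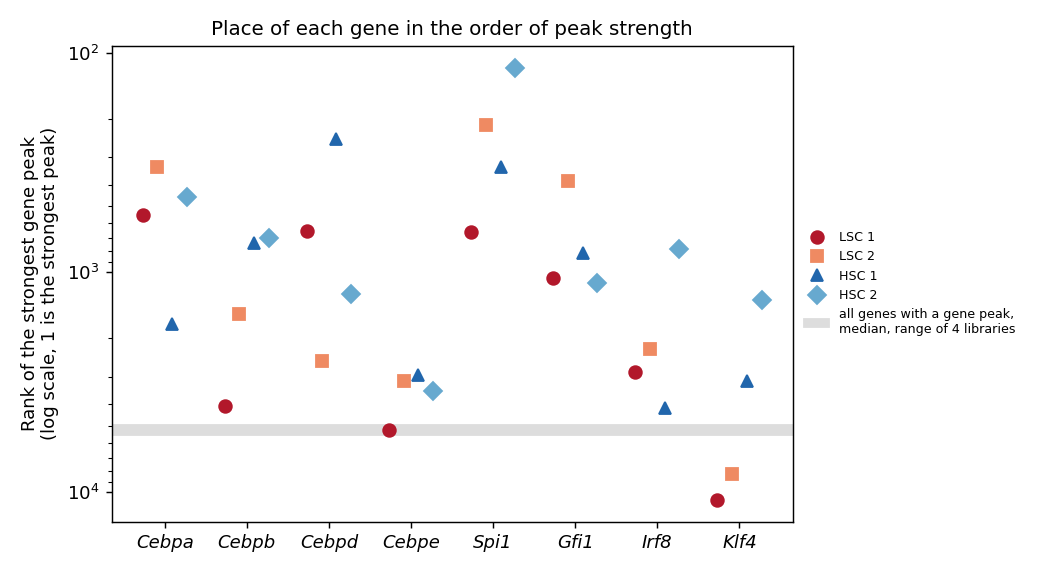
Rank of the strongest gene peak of each of the 8 genes in the 4 libraries, on a log axis with rank 1 the strongest; each point is 1 library. For Cebpb and Klf4 both LSC libraries lie at weaker ranks than both HSC libraries, and for the other 6 genes the groups overlap.

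Cebpa encodes C/EBPα, without which granulocyte-monocyte progenitors do not form. Its strongest gene peak ranked 551 in LSC 1 and 331 in LSC 2, against 1726 in HSC 1 and 453 in HSC 2. The groups overlapped, and HSC 1 alone stood apart (exact permutation p = 0.67). The gene lies at chr7:35119293-35121928 (mm10) on the plus strand. Its summit lay 1.23 and 1.46 kb downstream of the start in LSC 1 and LSC 2, against -0.329 kb (upstream) in HSC 1 and 1.4 kb downstream in HSC 2. The strongest signal was thus inside the gene or just past the start in 3 of 4 libraries.

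Cebpb, which encodes the C/EBP factor of emergency granulopoiesis, lies at chr2:167688915-167690432 on the plus strand. Its strongest gene peak ranked 4065 and 1544 in LSC 1 and LSC 2, against 734 and 695 in HSC 1 and HSC 2. The summit of this peak lay 2.12 and 2.15 kb downstream of the start in the LSC libraries, against 1.94 and 2.06 kb in the HSC libraries. The gene is 1518 bp long, so the summit lay past its end in all 4 libraries. Both LSC libraries were lower in the order than both HSC libraries (2804 ± 1783 against 714.5 ± 27.6, n = 2 each, exact permutation p = 0.33). Only Cebpb and Klf4 of the 8 showed this separation, a share near that of all genes with a gene peak in all 4 lists, of which 18.1% did. No member lay higher in both LSC libraries, where 30.6% of those genes did.

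Cebpd and Cebpe encode C/EBPδ, an inflammation-responsive family member, and C/EBPε, which drives late granulocyte maturation and the making of secondary granules. The Cebpd peak (gene at chr16:15887286-15889545) ranked 650 and 2549 in LSC 1 and LSC 2, against 248 and 1257 in HSC 1 and HSC 2. The Cebpe peak (gene at chr14:54710363-54712174) ranked 5241 and 3129 in LSC 1 and LSC 2, against 2928 and 3486 in HSC 1 and HSC 2. The groups overlapped for both genes (exact permutation p = 0.67 for each), and peaks covered 100% of both gene bodies in every library. Cebpd overlaps the end of Spidr in the annotation, so its gene peak cannot be assigned to 1 of the 2 genes.

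Spi1 carried gene peaks far apart from each other. The strongest, inside the annotated gene (chr2:91082374-91115759), ranked 657 and 214 in LSC 1 and LSC 2, against 333 and 117 in HSC 1 and HSC 2. Its summits lay 14.6 and 14.8 kb above the low-coordinate end in the LSC libraries, against 15.5 and 15.6 kb in the HSC libraries. A separate peak over the low-coordinate end ranked 7630 and 6947 in the LSC libraries, against 1672 and 3145 in the HSC libraries. The internal peak overlapped between the groups in rank, while the peak at the low-coordinate end was weaker in order in both LSC libraries than in both HSC libraries; it was singled out after its values were seen. The share covered by gene peaks was taken over the Spi1 gene body with 1 kb to either side. It was 39% and 51% in LSC 1 and LSC 2, against 73.6% and 65.4% in HSC 1 and HSC 2 (45 ± 8.49 against 69.5 ± 5.8, n = 2 each, exact permutation p = 0.33). In lists of equal size the covered share was 38.1% and 51% in LSC 1 and LSC 2, against 71.1% and 56.3% in HSC 1 and HSC 2, again without overlap. This measure too was singled out after its values were seen. It was also lower without overlap at Gfi1 (mean 53.3% in LSCs, against 60.55% in HSCs) and Klf4 (39% against 53.4%). At the remaining members the groups overlapped, with higher LSC means at Cebpa (92.6% against 89.8%) and Cebpb (86.85% against 73%). How many of all genes separated in this way was not counted. The low-coordinate end is that of the outermost annotated transcript. The promoter table holds no strand for Spi1, so which of these peaks lies at the start used in myeloid cells cannot be told from the annotation used here.

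Gfi1 encodes a zinc-finger repressor that favours neutrophils over monocytes, and Irf8 a factor that drives monocytes and dendritic cells and restrains granulocytes. The Gfi1 peak (gene at chr5:107716655-107725805, minus strand) ranked 1060 and 383 in LSC 1 and LSC 2, against 820 and 1114 in HSC 1 and HSC 2. The Irf8 peak (gene at chr8:120736358-120756694, plus strand) ranked 2854 and 2245 in LSC 1 and LSC 2, against 4148 and 784 in HSC 1 and HSC 2. For both genes the groups overlapped (exact permutation p = 0.67 for Gfi1 and 1.00 for Irf8), and the HSC libraries differed more from each other at Irf8 than the LSC libraries did. Summits lay 0.548 and 0.362 kb downstream of the Gfi1 start in the LSC libraries, against 0.384 and 0.552 kb in the HSC libraries. At Irf8 they lay 1.16 and 1.21 kb downstream in the LSC libraries, against 1.39 and 0.656 kb in the HSC libraries.

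Klf4, a zinc-finger factor of monocyte differentiation, had the weakest gene peak of the 8 in both LSC libraries. Its gene lies at chr4:55527137-55532475 on the minus strand. The peak ranked 10896 and 8314 in LSC 1 and LSC 2, against 3116 and 1337 in HSC 1 and HSC 2. The deposited fold was 27.4 and 38.9 with 151 and 213 reads at the summit in the LSC libraries, against 38.1 and 70 with 154 and 592 reads in the HSC libraries. The ranks did not overlap (9605 ± 1826 against 2226 ± 1258, n = 2 each, exact permutation p = 0.33).

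Promoter sequence was available for 5 of the 8 genes (RefSeq, GRCm38.p6), as 250 bases before and 50 after the start of transcription. Printed here are Cebpb and Klf4, whose starts lay between peaks in most libraries, and Cebpa and Irf8, whose starts lay inside a peak in every library. Each runs 5′ to 3′ on the strand of its gene, and capitals mark TATAAA (the TATA box), GGGCGG (the GC box) and CCAAT, searched on both strands. The regions are chr2:167688665-167688964 (plus), chr4:55532426-55532725 (minus), chr7:35119043-35119342 (plus) and chr8:120736108-120736407 (plus).
Cebpb: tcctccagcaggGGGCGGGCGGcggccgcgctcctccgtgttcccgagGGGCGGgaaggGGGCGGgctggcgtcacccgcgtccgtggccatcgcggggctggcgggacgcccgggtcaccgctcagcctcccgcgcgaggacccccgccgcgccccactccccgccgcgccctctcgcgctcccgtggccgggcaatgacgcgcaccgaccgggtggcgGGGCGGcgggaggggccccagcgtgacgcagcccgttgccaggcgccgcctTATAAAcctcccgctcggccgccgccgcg
Klf4: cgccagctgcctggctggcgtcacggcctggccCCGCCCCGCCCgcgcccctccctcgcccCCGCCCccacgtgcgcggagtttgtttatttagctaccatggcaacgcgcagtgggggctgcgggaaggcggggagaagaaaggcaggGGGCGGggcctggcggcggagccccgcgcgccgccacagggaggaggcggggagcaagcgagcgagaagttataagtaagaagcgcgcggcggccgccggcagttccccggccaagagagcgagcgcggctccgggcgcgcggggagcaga
Cebpa: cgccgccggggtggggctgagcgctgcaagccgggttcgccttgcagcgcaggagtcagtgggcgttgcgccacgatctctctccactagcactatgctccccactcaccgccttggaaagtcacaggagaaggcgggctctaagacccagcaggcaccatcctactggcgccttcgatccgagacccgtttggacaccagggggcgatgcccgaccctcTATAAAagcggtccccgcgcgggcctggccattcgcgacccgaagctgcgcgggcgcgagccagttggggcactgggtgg
Irf8: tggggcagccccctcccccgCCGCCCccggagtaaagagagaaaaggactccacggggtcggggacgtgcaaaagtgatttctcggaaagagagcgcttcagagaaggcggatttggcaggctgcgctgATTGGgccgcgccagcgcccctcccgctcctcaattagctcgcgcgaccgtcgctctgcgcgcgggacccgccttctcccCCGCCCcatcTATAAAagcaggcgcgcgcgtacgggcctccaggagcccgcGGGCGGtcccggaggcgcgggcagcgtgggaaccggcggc

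At Cebpb the peaks ended before the start and began again after it. The gap was 925 bp long in LSC 2, 894 bp in HSC 1 and 1005 bp in HSC 2, while a single peak spanned the start in LSC 1. Of the 300 promoter bases of Cebpb printed above, 300 lay in peaks in LSC 1 and 58 in LSC 2, against 41 in HSC 1 and 11 in HSC 2. At Klf4 the gap was 473 bp in LSC 1 and 778 bp in LSC 2, against 574 bp in HSC 1, and in HSC 2 a peak covered the start and 237 of the 300 bases. No base of the Klf4 promoter lay in a peak in the other 3 libraries. The gap therefore occurred in both cell types and did not separate them. When flanking peaks had to lie within 0.5 kb of the start in place of 1 kb, Cebpb no longer met the definition in any library, and the 3 cases of Klf4 did.

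**Figure D3:**
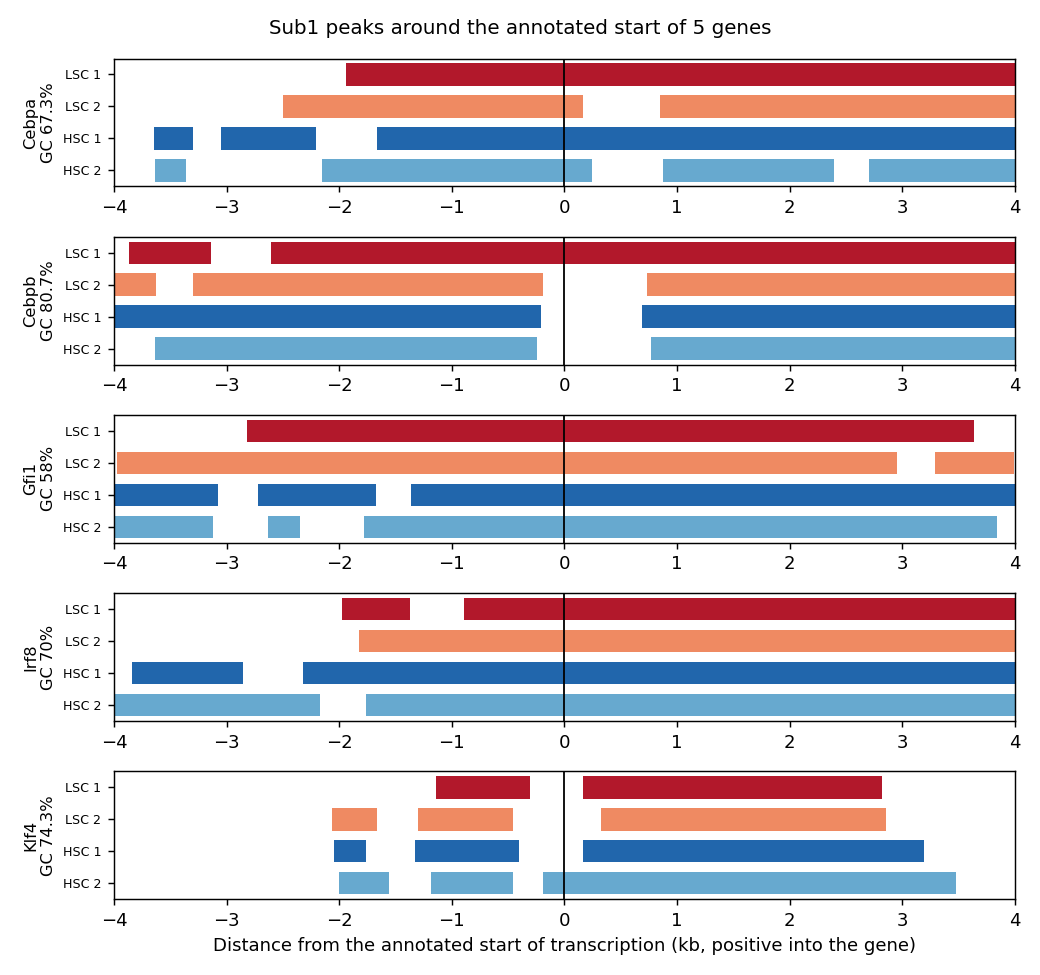
Peaks within 4 kb of the starts of Cebpa, Cebpb, Gfi1, Irf8 and Klf4, the 5 genes with a known strand, drawn in the direction of transcription; the horizontal axis is the distance from the start in kb, with LSC rows above HSC rows. The start lies between flanking peaks in 3 of 4 libraries at Cebpb and at Klf4, and inside a peak in all 4 libraries at Cebpa, Gfi1 and Irf8.

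A start flanked by peaks within 1 kb on both sides and itself outside any peak was uncommon. Of 10583 starts with a promoter sequence, 0.832% and 1.74% were of this kind in LSC 1 and LSC 2, against 3.43% and 6.12% in HSC 1 and HSC 2. In at least 3 libraries it was seen at 0.784%, 83 starts in all, among them those of Cebpb and Klf4. These promoters were rich in G and C, with 80.7% at Cebpb and 74.3% at Klf4, against 67.3% at Cebpa, 58% at Gfi1, 70% at Irf8 and a median of 54% over all promoters. They held 50 and 40 CpG dinucleotides, where Cebpa held 29, Gfi1 16, Irf8 38 and the median promoter 9. Over all genes, in lists of equal size, starts between peaks made up 2.72% and 7.07% of the promoters with 64.7 to 87% GC in LSC 1 and LSC 2, against 6.45% and 11.3% in HSC 1 and HSC 2. In the other 4 classes of GC content they made up at most 1.67% in any library. Most starts of the lowest class had no peak nearby, which limits this share. Among starts in or between peaks, the highest class had 3.64% and 10.1% between peaks in LSCs, against 9.91% and 18.5% in HSCs. The lowest class had 0% and 0.935% in LSCs, against 3.3% and 2% in HSCs. In the deposited HSC lists the highest class had 14.6% and 25.2%, and the lowest 12.2% and 12.5%. This is a description across genes, which share their libraries, and the part of base composition in it was not tested.

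**Figure D4:**
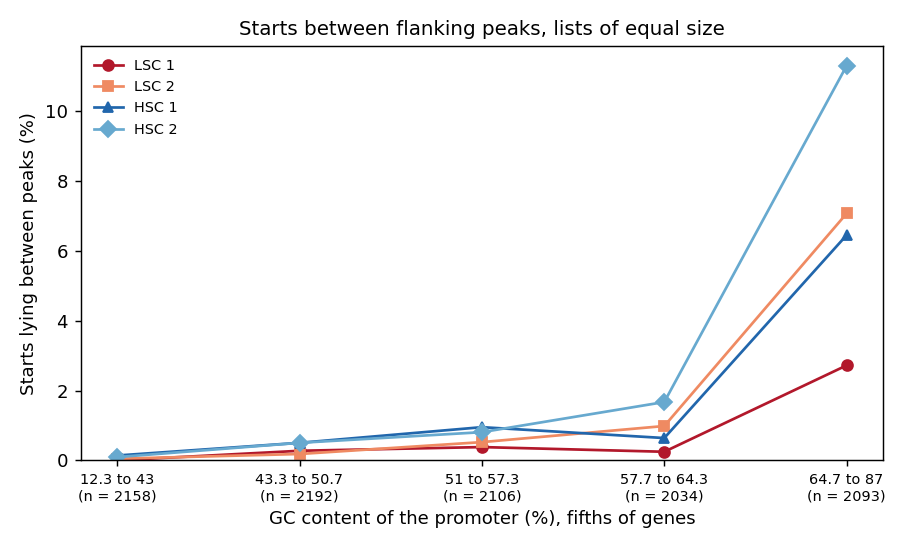
Share of starts lying between flanking peaks in lists of equal size, in percent, by GC content of the promoter in 5 classes of about equal size; each line is 1 library. All 4 lines are highest in the class of 64.7 to 87% GC, which holds Cebpa, Cebpb, Irf8 and Klf4.

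The promoters also differed in the short motifs they held. TATAAA, present in 16.9% of the 10583 promoters, began at position -30 from the start in Cebpa and at -31 in Irf8, and at 22 in Cebpb, after the annotated start. GGGCGG, present in 40.5%, occurred 5 times in Cebpb, 4 times in Klf4 and 3 times in Irf8 and was not found in the windows of Cebpa and Gfi1. CCAAT, present in 40.3%, occurred once, in Irf8, on the minus strand. The C/EBP motif TTGCNNAA, present in 11.2%, occurred once, in Gfi1, which is not printed. GAGGAA, a string of PU.1-type ETS sites and present in 27.8%, was not found in any of the 5 windows. The shorter core of ETS sites, GGAA, was not searched for, so these windows cannot be said to lack it. A match is a string of letters and does not show that a factor binds there.

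In the deposited lists the 8 windows together held fewer peaks in LSCs than in HSCs, in numbers that followed the lengths of the lists. The windows held 85 and 77 peaks in LSC 1 and LSC 2, against 201 and 264 in HSC 1 and HSC 2 (81 ± 5.66 against 232.5 ± 44.5, n = 2 each, exact permutation p = 0.33). Distal peaks accounted for most of this gap, with 64 and 54 in the LSC libraries, against 174 and 235 in the HSC libraries. Of these, 8 and 7 in the LSC libraries, against 15 and 20 in the HSC libraries, lay within 1 kb of an end of another protein-coding gene; in lists of equal size these were 7 and 7 in the LSC libraries, against 10 and 11 in the HSC libraries. Every member had fewer peaks in both LSC libraries than in both HSC libraries, as did 78.4% of all genes. In lists of equal size the totals were 69 and 77 in the LSC libraries, against 84 and 64 in the HSC libraries, and the groups overlapped (exact permutation p = 1.00). Peaks in these lists covered 108 and 141 kb of the windows in LSC 1 and LSC 2, against 148 and 144 kb in HSC 1 and HSC 2.

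**Figure D5:**
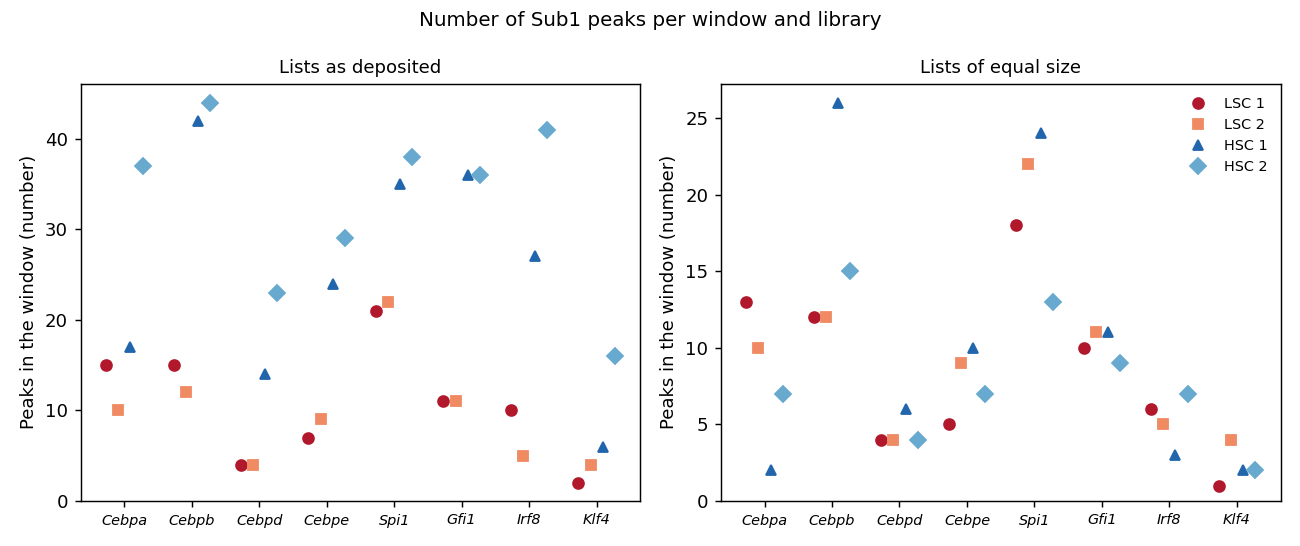
Number of Sub1 peaks in each of the 8 windows in the 4 libraries, in the deposited lists on the left and in lists of equal size on the right. On the left every gene has fewer peaks in both LSC libraries than in both HSC libraries; on the right the groups overlap or meet for all genes but Cebpa, higher in both LSC libraries, and Cebpb, lower in both.

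The windows were dense in peaks in every library. A window held a median of 8 and 9.5 peaks in the LSC lists of equal size, against 8 and 7 in the HSC lists, where the median over all genes was 3 in each of the 4. Cebpa was the member with more peaks in both LSC libraries, 13 and 10, against 2 and 7 in the HSC libraries. Cebpb was the member with fewer, 12 and 12 in the LSC libraries, against 26 and 15 in the HSC libraries. For 1 of 8 members in each direction the groups thus did not overlap, close to the 11.7% of all genes with more and the 10.5% with fewer peaks in both LSC libraries.

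Peaks of the 4 libraries that overlapped by at least 1 bp were merged into regions. In lists of equal size 114 regions touched the windows, and 19 of them (16.7%) were shared by all 4 libraries, against 18.6% of regions in the genome. Regions held by both LSC libraries and neither HSC library numbered 9 (7.89%, genome 6.3%), and the reverse 3 (2.63%, genome 2.87%). Mixed pairs of 1 LSC and 1 HSC library held 2, 1, 8 and 2 regions, so the LSC-only count was about that of the largest mixed pair, LSC 2 with HSC 1. In the deposited lists 1 region was LSC-only (0.33%, genome 0.347%) and 41 were HSC-only (13.5%, genome 7.8%), and 34 of 303 regions were shared by all 4 (11.2%, genome 5.41%).

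Of the 9 LSC-only regions of the lists of equal size, 5 lay around Cebpa, 2 around Spi1 and 2 around Gfi1. The 5 at Cebpa were chr7:35080968-35081974, chr7:35112614-35113674, chr7:35153919-35154800, chr7:35155395-35157018 and chr7:35171271-35172001. In LSC 1 their folds were between 7.94 and 12.3, and in LSC 2 between 5.63 and 7.81. They were weak peaks, ranking between 15162 and 24435 of 34185 in the LSC lists. At least 5 such regions were found at 76 genes, 0.347% of all, a limit set at the Cebpa value after it was seen. In the deposited lists Cebpa had 0 LSC-only regions, since at least 1 of the longer HSC lists held a peak at each of these places, and in lists of 17092 peaks it also had 0. Without LSC 2 the count in lists of equal size was 9.

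The LSC-only regions of Spi1 and Gfi1 were weak as well. The region at chr2:91042645-91043447, 39.7 to 38.9 kb below the low-coordinate end of Spi1, had folds of 17 in LSC 1 and 9.27 in LSC 2 and was the only one with no peak in either HSC list as deposited. The HSC-only regions of the lists of equal size were chr2:167678604-167679703 near Cebpb, and chr5:107695978-107698307 and chr5:107752344-107754179 near Gfi1. At least 1 LSC-only region was found at 32.3% of genes and at 3 of 8 members, and at least 1 HSC-only region at 20% of genes and at 2 members.

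Enhancers known in mice were looked for at their distance from the start, within 2 kb, for the 5 elements whose gene has a known strand. The Cebpa element 37 kb downstream of the start is needed for Cebpa expression in myeloid progenitors. It had a peak in all 4 deposited lists. The strongest peak there had a fold of 12.3 with 67 reads at the summit in LSC 1 and of 7.63 with 41 reads in LSC 2, against 8.11 with 32 reads in HSC 1 and 8.38 with 70 reads in HSC 2. It ranked 15162 and 16857 in the LSC libraries, against 44617 and 72307 in the HSC libraries, so lists of equal size held it in both LSC libraries and in neither HSC library. A peak at that distance from the start was found in 16.8% and 15.3% of 17492 genes in the deposited LSC lists, against 30.1% and 49.9% in the HSC lists. In lists of equal size the shares were 14.9% and 15.3% for LSCs, against 14.2% and 15.8% for HSCs. How many genes had such a peak in both LSC lists and in neither HSC list was not counted. The element lies among the LSC-only regions of Cebpa counted above and is no separate evidence.

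Irf8 is controlled from elements 32, 41 and 56 kb downstream of its start, used in dendritic cells and monocytes. The element at 56 kb had a peak of fold 3.61 in LSC 1 and none in LSC 2, against folds of 8.6 in HSC 1 and 12.5 in HSC 2. At that distance 16.4% and 14.8% of the same 17492 genes had a peak in the LSC lists, against 29.6% and 49.3% in the HSC lists. At 41 kb the HSC 2 list alone held peaks. The first had a fold of 3.31, and the other, with a fold of 9.09, only touched the edge of the 2 kb limit, with its summit 43.3 kb from the start. At 32 kb a peak was found in HSC 2 alone, with a fold of 8.85. The Gfi1 element 35 kb upstream of the start had a peak in HSC 2 alone as well, with a fold of 10.5. HSC 2 has the longest list, and 49.3%, 50% and 50.6% of the 17492 genes had a peak in it at 41 and 32 kb downstream and 35 kb upstream. In all, 2 and 1 of the 5 elements had a peak in LSC 1 and LSC 2, against 2 and 5 in HSC 1 and HSC 2 (exact permutation p = 0.67). The direction turned in lists of equal size, with 1 and 1 in the LSC libraries, against 0 and 1 in the HSC libraries. The Spi1 upstream regulatory element and the Cebpe enhancer were not placed, since the promoter table gives no strand for these genes.

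In the deposited lists, distal regions shared by all 4 libraries were found at every member but Klf4. At Cebpd the only such region was the one at Mzt2 named below. In lists of equal size Cebpa had none either. The share of all genes with such a region was not counted. Near Irf8, a region that began at -42.8 kb from the start (chr8:120693547-120695677) had folds of 14.6 and 11.1 in LSC 1 and LSC 2, against 8.35 and 12.7 in HSC 1 and HSC 2. Near Gfi1, chr5:107747889-107751163, upstream of the start, had folds of 20.2 and 23.6 in the LSC libraries, against 15.7 and 15.3 in the HSC libraries. Folds are not compared between lists. By rank the groups overlapped at the Gfi1 region, with 11964 and 10053 in the LSC libraries, against 11309 and 19378 in the HSC libraries. The Irf8 region ranked 13738 and 12956 in the LSC libraries, against 41753 and 29651 in the HSC libraries. Neither region is near an end of another protein-coding gene. In lists of equal size the Gfi1 region was kept in all 4 libraries and the Irf8 region in all but HSC 1. The strongest distal regions lay at ends of neighbouring genes. Of these, chr16:15861080-15867186 at Mzt2, in the Cebpd window, ranked 185 and 203 in the LSC libraries, against 803 and 503 in the HSC libraries. In the Cebpe window, chr14:54685080-54689042 at Acin1 ranked 187 and 68 in the LSC libraries, against 196 and 1058 in the HSC libraries. These peaks outranked the gene peak of the member in the same window in every library at Cebpe, and in the LSC libraries and HSC 2 at Cebpd. Windows were drawn around the members, and such peaks may belong to the neighbour.

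Related genes are best read against the shares of all genes with a gene peak in the same lists, 61.8% and 57.3% in the deposited LSC lists, against 68.9% and 82.4% in the HSC lists. Of 37 other myeloid regulators, gene peaks were found at 35 and 34 in the deposited LSC lists, against 35 and 37 in the HSC lists. Batf3, a dendritic cell factor, had a gene peak in both HSC lists and in neither LSC list, with ranks of 112399 and 101846 in the HSC lists. In lists of equal size the counts were 35 and 34 in the LSC libraries, against 31 and 33 in the HSC libraries, Maf, a macrophage factor, was LSC-only, and Batf3 and Spic had no gene peak. Of 6 other C/EBP genes and regulators of C/EBP proteins, 5 in each LSC list had a gene peak, against 5 and 6 in the HSC lists as deposited, and Trib2, which promotes degradation of C/EBPα, had none in lists of equal size.

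All 20 genes listed as targets of the 8 factors, such as Elane, Mpo and Csf1r, had a gene peak in all 4 libraries in both kinds of list. The strongest peak of Elane, which encodes neutrophil elastase, ranked 61 and 137 in LSC 1 and LSC 2, against 326 and 259 in HSC 1 and HSC 2. Prtn3, which encodes proteinase 3, had the same ranks in all 4 lists, so the peak cannot be assigned to 1 of these genes. It was higher in the order than any gene peak of the 8 factors in both LSC libraries. Elane and Prtn3 were named after their values were seen, and the list as a whole went the other way. The median target ranked 8036 and 6274 in the LSC libraries, against 4276 and 2783 in the HSC libraries. All genes with a gene peak had medians of 5513 and 5110 in the LSC lists of equal size, against 4936 and 5324 in the HSC lists. Of 11 regulators of other lineages, 4 and 3 had a gene peak in the deposited LSC lists, against 8 and 11 in the HSC lists, and Pax5, Ebf1, Foxp3 and Eomes were among those with one in both HSC lists and in neither LSC list. In lists of equal size the counts were 4 and 3 in the LSC libraries, against 1 and 5 in the HSC libraries, no gene of this list was held by 1 group alone, and Gata1, Ebf1, Bcl11b, Foxp3 and Eomes were among those with no gene peak.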

How the data were processed

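Sub1 CUT&Tag was measured in 2 LSC and 2 HSC libraries, amplified with 17 to 20 PCR cycles per the labels. Per the submitters' processing notes, FastQC 0.11.5, Bowtie2 2.2.9, MACS2 and ChIPseeker were used with mm10; no control library or handling of duplicate reads is given in the sources used here. The authors deposited 1 peak list per library. In it the fold is a ratio of pileup to background, the deposited -log10 p and -log10 q are the caller's, and the deposited score is made from -log10 q. The lowest -log10 q was 5.36 and 5.41 in LSC 1 and LSC 2, against 5.21 and 5.26 in HSC 1 and HSC 2. Peak names in all 4 lists begin with H4-Cut, a prefix without explanation in the labels. The antigen was taken from the labels, which also give the LSC samples the cell type hematopoietic stem cell.

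Background was recovered from the spacing of the folds, and 100% of folds below 100 in each library then gave whole pileups within 0.05 reads. Such folds made up 35222 of 41097 peaks in LSC 1 and 30866 of 34185 in LSC 2. In the HSC lists they made up 115808 of 115881 and 235318 of 235680. Higher folds were not checked in this way. Read totals are unknown. Genes, without strand, and promoters came from RefSeq tables of GRCm38.p6, the mm10 assembly. Strand was known for 5 members, so 5 of 7 planned elements were placed. Groups were compared by the two-sided exact permutation test over 6 assignments. All 8 members are named; from related lists, genes with gene peaks in 1 group alone or in no library are named, and Elane, Prtn3, Mpo and Csf1r were added after their values were seen; 1 gene of these lists is not reported here by name. The members and lists were chosen with earlier results of these data known. Other settings tried were -log10 q from 10 up, lists of 34185 or 17092 peaks, order by fold, windows of 25 and 100 kb, gene peaks within 3 kb, elements within 1 kb, overlap of 50%, leaving out each library, and a replicate block. Counts by window were tested on simulated data and 100% were recovered. Python 3.11.15, NumPy 2.4.6, pandas 2.3.3 and matplotlib 3.10.9 were used.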

Additional observations from a re-analysis of the deposited data

How the results depend on the processing

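Of 244 values under alternative settings, 16 changed sign and 22 moved by more than the limit used. No test could pass the threshold of 0.05, so none could be lost. Ranks of strongest peaks could hardly move with list length, since these peaks are in every list. Ordering peaks by fold and placing them by summit also left all of these ranks unchanged. Such values are counted among the 244 and say little about stability. In lists of 34185 and of 17092 peaks the difference in named elements with a peak, LSC minus HSC, was 0.5 in each, against -2 as deposited. Regions in all 4 libraries, 34 as deposited, numbered 19 in lists of equal size, 15 in lists of 17092 peaks and 18 with an overlap of 50%. LSC-only regions, 1 as deposited, numbered 9, 2 and 5 in the same settings, 2 at a -log10 q of at least 10 and 0 in windows of 25 kb. HSC-only regions, 41 as deposited, numbered 3, 0 and 25 in the same 3 settings and 67 in windows of 100 kb. Shorter lists hold fewer HSC peaks by construction; the cause of the other shifts was not tested.

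Leaving out each library in turn gave 4 to 11 LSC-only and 47 to 173 HSC-only regions, since a group then needs 1 library fewer. The differences lay between -183 and -120 for peaks, -176 and -115 for distal peaks, -135.1 and -74.02 kb for covered length, -3.5 and -0.5 for elements, and 652.8 and 976.8 for the median rank. The rank difference of the strongest gene peak changed sign at Cebpd (-102.5 to 1796), Cebpe (-78 to 2034), Spi1 (-11 to 432), Gfi1 (-584 to 93) and Irf8 (-1598 to 1766, with -221 without LSC 1). It did not at Cebpa (-1285 to -12), Cebpb (829.5 to 3350) and Klf4 (6088 to 8670). The Cebpa value of -12, reached without HSC 1, was close to no difference. Leaving out LSC 2 gave 9 LSC-only regions at Cebpa in lists of equal size, against 5.

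In lists of equal size the difference in peaks per window turned positive at Cebpa (7), Spi1 (1.5), Gfi1 (0.5), Irf8 (0.5) and Klf4 (0.5), and in lists of 17092 peaks at Cebpa (2), Gfi1 (1) and Klf4 (0.5). With flanking peaks within 0.5 kb, 3 starts between peaks over members and libraries were left in place of 6, all of Klf4, and in lists of equal size 5. These starts, the LSC-only regions of Cebpa and the settings tried on both were chosen after seeing the data.

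The libraries share only a replicate number. Under a replicate block (exact sign changes over 2 pairs, smallest p = 0.50) the differences were -151.5 peaks, -145.5 distal peaks, -104.6 kb, -2 elements and 814.8 in median rank, as without it; neither design can pass the threshold, so this says nothing about stability. Across 10788 genes the log2 rank ratio of library 1 to library 2 correlated between LSC and HSC at r = 0.28, a description across genes. Read totals are unknown, so whether a peak missing from a list reflects depth was not tested; the LSC backgrounds lie between those of HSC 1 and HSC 2.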
